A study of Mus musculus with 12 samples.

Results

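The comparison described here is the difference in the islet response to pregnancy between mice with and without the prolactin receptor, and it uses all 12 of the 12 arrays of the series. For each gene, the change from the non-pregnant state (NP) to day 9.5 of pregnancy (P9.5) was taken in PRLR-/- islets, and the same change in PRLR+/+ islets was subtracted from it. This difference is called the interaction, and a negative interaction means that the change was more negative, or less positive, in PRLR-/- islets. The 4 groups were pancreatic islets of adult PRLR+/+ NP, PRLR+/+ P9.5, PRLR-/- NP and PRLR-/- P9.5 mice on the 129Sv background, with 3 arrays in each group that the labels call biological replicates. The PRLR-/- mice lacked the receptor in all tissues. By the study's methods, pregnant PRLR-/- mice also carried a progesterone pellet, because PRLR-/- females are otherwise sterile, so the genotype and the pellet cannot be told apart in the P9.5 groups. Values are log2 expression levels of probe sets on an Affymetrix MoGene_1.0_ST array, rounded to 0.1.

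The prolactin receptor binds prolactin and, during pregnancy, the placental lactogens that the placenta secretes. The bound receptor activates the kinase JAK2, which phosphorylates the transcription factor STAT5, and STAT5 then enters the nucleus and switches genes on or off, including inhibitors that dampen the receptor itself. In rodent pregnancy, beta cells respond to these hormones with more division, more insulin secretion and, in many strains, serotonin synthesis.

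The defining markers of islet cells were high on every array. Ins2 (insulin) lay between 10.6 and 11, Iapp (amylin) between 12.3 and 12.6, Gcg (glucagon) between 13.4 and 13.9 and Sst (somatostatin) between 13.1 and 13.6. The acinar marker Cpa1, a digestive enzyme of the tissue around the islets, was also high and varied more, from 10.9 to 13. The targeted gene, Prlr, has no probe set under its own symbol in the annotation used here, and its level is not given. One array stood apart from the rest: Xist, which inactivates one X chromosome in female cells, was at 3.8 in PRLR+/+ P9.5 replicate 2 and between 10 and 10.7 on the other 11 arrays, while the Y-linked gene Kdm5d lay between 4.1 and 4.6 on all 12. Interaction calls named below that change without this array are given with and without it.

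Most of the islet response to pregnancy was seen in both genotypes. Calls needed an adjusted p under 0.05 in limma (Benjamini-Hochberg, over all 35511 probe sets) together with a change of 1.5-fold or more, and each of the 19938 named genes was represented by its brightest probe set. In PRLR+/+ islets 1167 genes rose (5.85%) and 437 fell (2.19%) at P9.5. The corresponding counts in PRLR-/- islets were 1567 (7.86%) and 610 (3.06%). Counted over probe sets, 2034 (5.73%) rose and 1494 (4.21%) fell in PRLR+/+ islets, and 2641 (7.44%) rose and 2518 (7.09%) fell in PRLR-/- islets. Of the 1604 genes called in PRLR+/+ islets, 1550 had a change of the same sign in PRLR-/- islets and 45 of the opposite sign, and the median gene had 86.3% of its PRLR+/+ change there (quartiles 61.1% and 106%). Genes that rose in PRLR+/+ islets had a median of 94.4% of their rise in PRLR-/- islets, and genes that fell had 58.3% of their fall. In the other direction, the 2177 genes called in PRLR-/- islets had a median of 72.7% of their change in PRLR+/+ islets. A gene chosen for a large change in one genotype tends to show a smaller one in the other by selection alone, so these shares are a description. Across the 19938 genes, which are not independent replicates, Pearson's r between the 2 changes was 0.768 and Spearman's rho 0.753, and the 2 changes share no array.

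**Figure D1:**
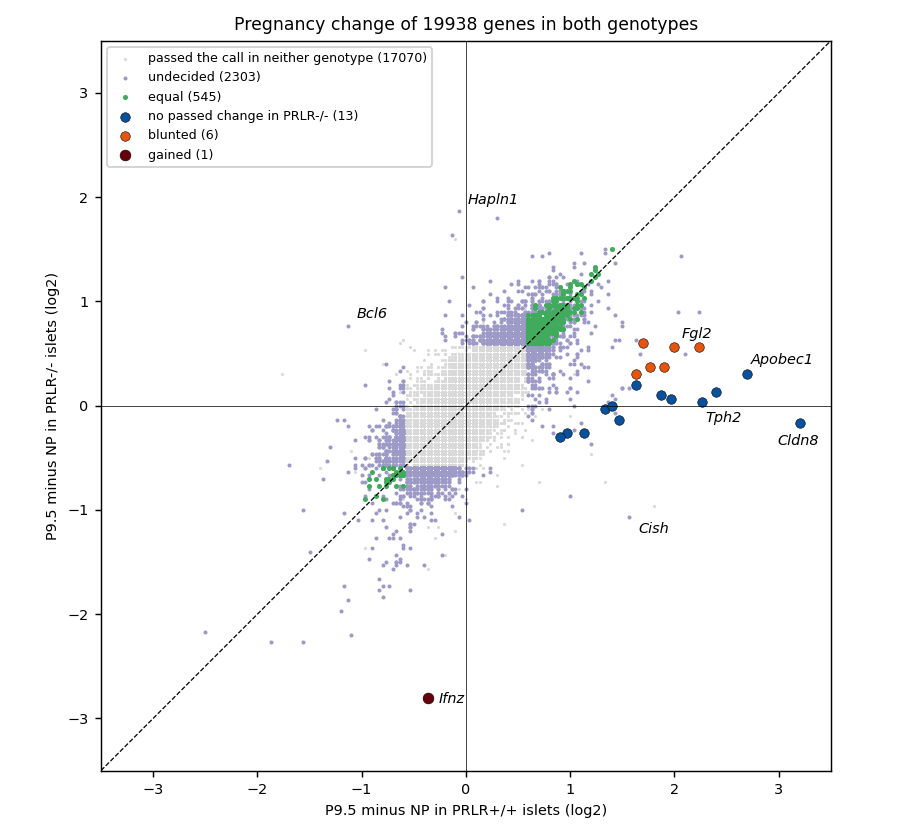
Change from NP to P9.5 in PRLR+/+ islets (x axis, log2) and in PRLR-/- islets (y axis, log2), 1 point per gene, with the dashed line marking equal changes. Most points lie along the line, while 19 genes that rose in PRLR+/+ islets lie far below it and Ifnz lies below it at a fall of 2.80 in PRLR-/- islets.

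A difference between the genotypes passed the test in few genes, and all of these were negative. The interaction was called lower in 28 of 35511 probe sets (0.0788%) and higher in 0 (0%) in limma. At an unadjusted p under 0.05, 1985 probe sets (5.59%) were lower and 1513 (4.26%) were higher. The 28 probe sets comprised 23 with 1 gene symbol, 3 with several symbols and 2 without a gene name. Of the 19938 genes, limma called 21 lower (0.105%) and 0 higher (0%), against 769 (3.86%) and 1082 (5.43%) at an unadjusted p under 0.05, and 20 of the 21 had a higher level at P9.5 than at NP in PRLR+/+ islets. The count of 0 higher probe sets depended on the settings, since limma called 33 when only probe sets with 1 gene symbol were fitted, 13 with array weights and 9 without the dimmest 40% of probe sets. Without the array of low Xist, 27 probe sets were lower and 1 was higher.

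Of the genes called in at least 1 genotype, 13 (0.0652% of all genes) rose in PRLR+/+ islets, had a called interaction and did not pass the adjusted p in PRLR-/- islets. A further 6 (0.0301%) rose in PRLR+/+ islets, had a called interaction and still passed the adjusted p with the same sign in PRLR-/- islets, and are described as blunted. One gene (0.00502%) changed in PRLR-/- islets only, with a called interaction. The change was equal in 545 genes (2.73%), which were called in both genotypes with the same sign and whose 95% interval of the interaction lay within a 1.5-fold difference either way. Another 2303 genes (11.6%) were undecided, and 17070 (85.6%) were called in neither genotype. The undecided include 673 genes called in PRLR+/+ islets only and 1263 called in PRLR-/- islets only, for which the difference itself did not pass the test, so that a call in one genotype alone does not show that the genotypes differ.

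Socs2, a suppressor of cytokine signalling that binds activated receptors, was at 7.4, 7.3 and 6.7 in PRLR+/+ NP islets and at 9.3, 9.2 and 8.8 in PRLR+/+ P9.5 islets. It was at 7.5, 7.5 and 7.3 in PRLR-/- NP islets and at 7.4, 7.6 and 7.5 in PRLR-/- P9.5 islets. The 3 PRLR+/+ P9.5 arrays lay above the 9 others, which overlapped. The log2 interaction of Socs2 was -1.90 (standard error 0.254, adjusted p = 0.0171 in limma), and its second probe set was also called, at -1.33 (adjusted p = 0.0122 in limma). Without the array of low Xist the interaction of Socs2 was -1.85 (adjusted p = 0.0533 in limma).

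Cish, a second inhibitor of the same family and a known STAT5 target, moved in opposite directions. It was at 7.1, 6.4 and 7.6 in PRLR+/+ NP and at 8.6, 8.7 and 8.5 in PRLR+/+ P9.5 islets, where it rose by 1.57 (adjusted p = 0.0102 in limma). The PRLR-/- values were 7.6, 7.6 and 6.2 at NP and 6.1, 6.3 and 5.8 at P9.5, where it fell by 1.07 (adjusted p = 0.0406 in limma). One PRLR-/- NP array lay within the PRLR-/- P9.5 range, so these 2 groups overlapped. The interaction of Cish had an adjusted p of 0.111 in limma over all probe sets, with a standard error of 0.511, and 0.00493 when only probe sets with 1 gene symbol were fitted. The fall in PRLR-/- islets did not pass without the array of low Xist (adjusted p = 0.0522 in limma).

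Bcl6, a transcriptional repressor, ran the other way. Its PRLR+/+ values were 6.5, 6.8 and 6.8 at NP and 5.4, 5.8 and 5.5 at P9.5, a fall of 1.13 (adjusted p = 0.00966 in limma). Its PRLR-/- values were 6.1, 5.3 and 5.7 at NP and 6.5, 5.9 and 7 at P9.5, a rise of 0.77 (adjusted p = 0.0397 in limma) between groups that overlapped. The interaction was 1.90 (standard error 0.366, 95% interval 1.10 to 2.70), with an adjusted p of 0.111 in limma over all probe sets, 0.00584 when only probe sets with 1 gene symbol were fitted and 0.0384 with array weights. Bcl6, Cish and Slc15a2, a transporter of small peptides, were the 3 genes called in both genotypes with opposite signs. Slc15a2 rose by 1.00 in PRLR+/+ islets and fell by 0.87 in PRLR-/- islets (interaction -1.87, adjusted p = 0.161 in limma), and was named after its values were seen.

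Among the 30 measured members of a list of prolactin receptor signalling genes, 4 rose and 3 fell in PRLR+/+ islets (23.3% called, against 8.04% of all genes). In PRLR-/- islets 3 rose and 2 fell (16.7%, against 10.9%), and Socs2 alone had a called interaction (0 were called higher). Limma gave 3 lower and 3 higher interactions among them before adjustment (p under 0.05). Myc, a transcription factor that drives growth, was one of the former and was named after its values were seen. It was at 6.3, 6.1 and 6.6 in PRLR+/+ NP, at 7.2, 7.5 and 7.9 in PRLR+/+ P9.5, at 6.7, 6.5 and 5.9 in PRLR-/- NP and at 6.1, 5.9 and 6 in PRLR-/- P9.5 islets. Only the PRLR+/+ P9.5 arrays stood above the rest (interaction -1.57, adjusted p = 0.117 in limma). Socs7, another member of the inhibitor family, fell in both genotypes, by 0.70 in PRLR+/+ and 0.67 in PRLR-/- islets, and was in the equal group. The median interaction of the list was 0.12, beside 0 over all genes.

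STAT5 dimers bind the sequence TTCNNNGAA, in which N is any base and which reads the same on both strands. Promoter windows from 250 bases before to 50 bases after the transcript start were taken from RefSeq (build GRCm38.p6) and searched for it. It was present in 8.30% of 32851 windows of that length. Counted by gene, 8.99% of the 15614 measured genes with a window had a match. Among the genes that lost their rise in PRLR-/- islets, 9 of 13 had a window and 0 held a match. Tph2 and Lonrf3 were among these 9. By the study's account, earlier work and a promoter search that it does not show found STAT5 sites in the promoters of all signature genes. Sites outside the windows used here are not seen, so a window without a match does not show that a gene lacks such sites. Of the 6 blunted genes 4 had a window, and 3 of these held a match. Among those 3, Fgl2 lost its called interaction without any of 8 arrays and Cntn3 without any of 11. The third, Ivd, kept its called interaction without any one array. After quantile normalization, however, it counted among the genes that lost their rise. In the equal group 38 of 440 genes with a window held a match (8.64%). Windows with matches are shown for genes that lost their rise or were blunted, for genes of the study's signature described below, and for Bcl6. Cish is a signature gene, and Bcl6 was added by choice. Neither had a called interaction over all probe sets. Slc15a2, which also ran in opposite directions, was not among the genes looked up. The matches are in capitals, and each window runs 5′ to 3′ on its gene's strand. Cish (chr9:107296409-107296708, plus strand) had 2, the first beginning on the start base and the second 11 bases after it. Bcl6 (chr16:23981234-23981533, minus strand) had 3, beginning at positions -168, -122 and -88 from the start, and a second window of this gene held 1. Ivd (chr2:118861744-118862043, plus strand) had 1 at -88, Fgl2 (chr5:21372423-21372722, plus strand) 1 at -36 and Cntn3 (chr6:102464618-102464917, minus strand) 1 at -89. A match of letters is a description and no evidence of binding.
Cish: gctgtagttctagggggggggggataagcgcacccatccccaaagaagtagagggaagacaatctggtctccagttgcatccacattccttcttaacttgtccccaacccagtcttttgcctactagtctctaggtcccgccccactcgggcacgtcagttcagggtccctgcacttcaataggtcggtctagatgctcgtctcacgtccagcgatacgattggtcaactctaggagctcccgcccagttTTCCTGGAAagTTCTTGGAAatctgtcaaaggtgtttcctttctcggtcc
Bcl6: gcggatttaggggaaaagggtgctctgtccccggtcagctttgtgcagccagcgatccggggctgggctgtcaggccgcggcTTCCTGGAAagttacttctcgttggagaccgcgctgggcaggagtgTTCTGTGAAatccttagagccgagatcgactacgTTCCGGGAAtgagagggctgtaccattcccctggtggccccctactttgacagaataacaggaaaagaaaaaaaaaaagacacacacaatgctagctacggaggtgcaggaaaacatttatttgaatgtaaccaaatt
Ivd: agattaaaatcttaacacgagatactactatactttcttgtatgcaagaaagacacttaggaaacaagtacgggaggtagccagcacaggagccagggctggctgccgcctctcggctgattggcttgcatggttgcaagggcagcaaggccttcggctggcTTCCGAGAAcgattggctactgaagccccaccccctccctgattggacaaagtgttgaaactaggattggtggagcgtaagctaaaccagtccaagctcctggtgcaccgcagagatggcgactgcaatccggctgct
Fgl2: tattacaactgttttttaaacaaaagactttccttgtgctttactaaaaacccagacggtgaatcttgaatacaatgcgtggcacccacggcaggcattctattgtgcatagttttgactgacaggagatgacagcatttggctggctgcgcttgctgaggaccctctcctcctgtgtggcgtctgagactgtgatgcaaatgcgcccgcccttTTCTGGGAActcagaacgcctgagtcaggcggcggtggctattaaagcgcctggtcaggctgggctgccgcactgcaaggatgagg
Cntn3: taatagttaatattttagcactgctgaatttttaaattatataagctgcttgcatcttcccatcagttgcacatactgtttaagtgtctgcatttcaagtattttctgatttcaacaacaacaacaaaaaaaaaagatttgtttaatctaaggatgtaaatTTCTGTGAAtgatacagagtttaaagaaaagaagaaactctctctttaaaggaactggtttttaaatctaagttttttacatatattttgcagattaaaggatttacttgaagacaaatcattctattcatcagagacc

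Serotonin genes showed both kinds of behaviour within one pathway. Tph2, one of the pair of tryptophan hydroxylases that carry out the first step of serotonin synthesis, was at 4.8, 4.7 and 4.8 in PRLR+/+ NP and at 7.2, 7.1 and 6.8 in PRLR+/+ P9.5 islets, 4.81-fold higher. Its PRLR-/- arrays lay between 4.7 and 5 at NP and at 4.9 on all 3 at P9.5, and the 95% interval of the change, -0.22 to 0.28, excluded a 1.5-fold rise. Its interaction, -2.23 with a standard error of 0.163, had the smallest adjusted p of all named genes (0.000276 in limma). Tph1, the other hydroxylase, lay between 4.4 and 4.7 on all 12 arrays and was called in neither genotype.

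Ddc, the decarboxylase of the second step, rose by 0.70 in PRLR+/+ and 0.63 in PRLR-/- islets, and Maoa, which breaks serotonin down, rose by 0.80 in both, so both were in the equal group. Gch1, which makes the cofactor of the hydroxylases, was called in PRLR-/- islets only, with a rise of 0.77 against a change of 0.10 in PRLR+/+ islets, and its interaction of 0.67 did not pass (adjusted p = 0.310 in limma). Of 26 serotonin genes measured, Tph2 alone had a called interaction (0 higher), and the median interaction was -0.02.

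The study also defined an islet pregnancy signature of 12 genes, picked for their strong induction in data of its earlier work, whose medians were 1.53 in PRLR+/+ islets, 0.07 in PRLR-/- islets and -1.45 for the interaction, against -0.07, -0.07 and 0 over all genes. All but Tph1 rose in PRLR+/+ islets (91.7% called, against 8.04% of all genes). In PRLR-/- islets 1 rose and 1 fell (16.7%, against 10.9%). A called interaction was seen in 6 of the 12, all of them lower, against 0.105% of all genes called lower. The mean level of the 12 genes was 5.83 to 5.97 on the PRLR+/+ NP arrays, 7.40 to 7.64 on the PRLR+/+ P9.5 arrays, 5.85 to 6.02 on the PRLR-/- NP arrays and 5.95 to 6.03 on the PRLR-/- P9.5 arrays, so the PRLR-/- groups overlapped with each other. Car8 and Ivd passed the adjusted p in PRLR-/- islets with rises of 0.57 and 0.37, which were under the fold minimum. Ehhadh, which oxidises fatty acids in peroxisomes, was the member with a called rise in both genotypes. It was at 6.8, 6.5 and 6.5 in PRLR+/+ NP and 8.1, 7.9 and 8.1 in PRLR+/+ P9.5 islets, and at 6.6, 6.2 and 6.5 in PRLR-/- NP and 7.2, 7.1 and 6.9 in PRLR-/- P9.5 islets. Its rise of 0.63 in PRLR-/- islets (adjusted p = 0.00442 in limma) was beside one of 1.43 in PRLR+/+ islets, and the interaction did not pass (adjusted p = 0.192 in limma). Tnfrsf11b, which encodes osteoprotegerin, Gbp8, a guanylate-binding protein, and Matn2, a matrix protein, rose in PRLR+/+ islets by 1.43, 1.5 and 1.00, and their changes in PRLR-/- islets were -0.07, 0.17 and 0.17. Their interactions of -1.50, -1.33 and -0.83 did not pass in limma over all probe sets (adjusted p = 0.128, 0.183 and 0.420). When only probe sets with 1 gene symbol were fitted, Tnfrsf11b and Gbp8 passed (adjusted p = 0.0108 and 0.0313 in limma). Tnfrsf11b also passed with array weights (adjusted p = 0.0491 in limma). The signature had 9 called interactions in the fit of probe sets with 1 symbol and 7 with array weights.

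The largest interaction was that of Cldn8, a claudin of tight junctions. It was at 4.5, 4.6 and 4.7 in PRLR+/+ NP and at 7.9, 6.9 and 8.6 in PRLR+/+ P9.5 islets, 9.19-fold higher. The PRLR-/- values were 4.8, 4.7 and 4.7 at NP and 4.6, 4.7 and 4.4 at P9.5, and the 2 stages overlapped. The PRLR+/+ P9.5 arrays were all higher than the rest and spread over 1.7 log2 units, the widest range in any group among the 19 genes described here and in the next paragraphs. Without PRLR+/+ P9.5 replicate 2, the lowest of them, the interaction of Cldn8 was -3.82 instead of -3.37 (adjusted p = 0.000379 and 0.0126 in limma).

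Apobec1 and Gdf3, which follow each other directly in the RefSeq gene order (assembly GRCm38.p6), had the next largest rises in PRLR+/+ islets among the named genes with a called interaction. Apobec1, a cytidine deaminase that edits the messenger RNA of apolipoprotein B, went from 6.5, 6 and 6 to 8.8, 9.1 and 8.7 in PRLR+/+ islets, 6.5-fold higher. Its PRLR-/- values went from 6.2, 6.3 and 6.5 to 6.8, 6.6 and 6.5. The PRLR-/- P9.5 arrays lay at or just above the highest NP array and more than 1 log2 unit below every PRLR+/+ P9.5 array. Its interaction was -2.40 (standard error 0.224, adjusted p = 0.00203 in limma).

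Gdf3, a secreted ligand related to TGF-beta, went from 6.6, 5.9 and 6.2 to 8.8, 8.4 and 8.7 in PRLR+/+ islets and from 5.5, 6 and 6 to 6, 6 and 5.9 in PRLR-/- islets. Its PRLR+/+ P9.5 arrays were above all others and the 3 remaining groups overlapped (interaction -2.27, standard error 0.262, adjusted p = 0.00756 in limma). Dppa3, the measured gene next to Gdf3 on the other side and named after its values were seen, was lower at P9.5 in both genotypes: it fell by 0.60 in PRLR+/+ islets, while its change of -0.50 in PRLR-/- islets was under the fold minimum (interaction 0.10). The interaction of these 2 neighbours was called without any one of the 12 arrays, as was that of Tph2, Lonrf3, B3galnt1 and Neb.

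**Figure D2:**
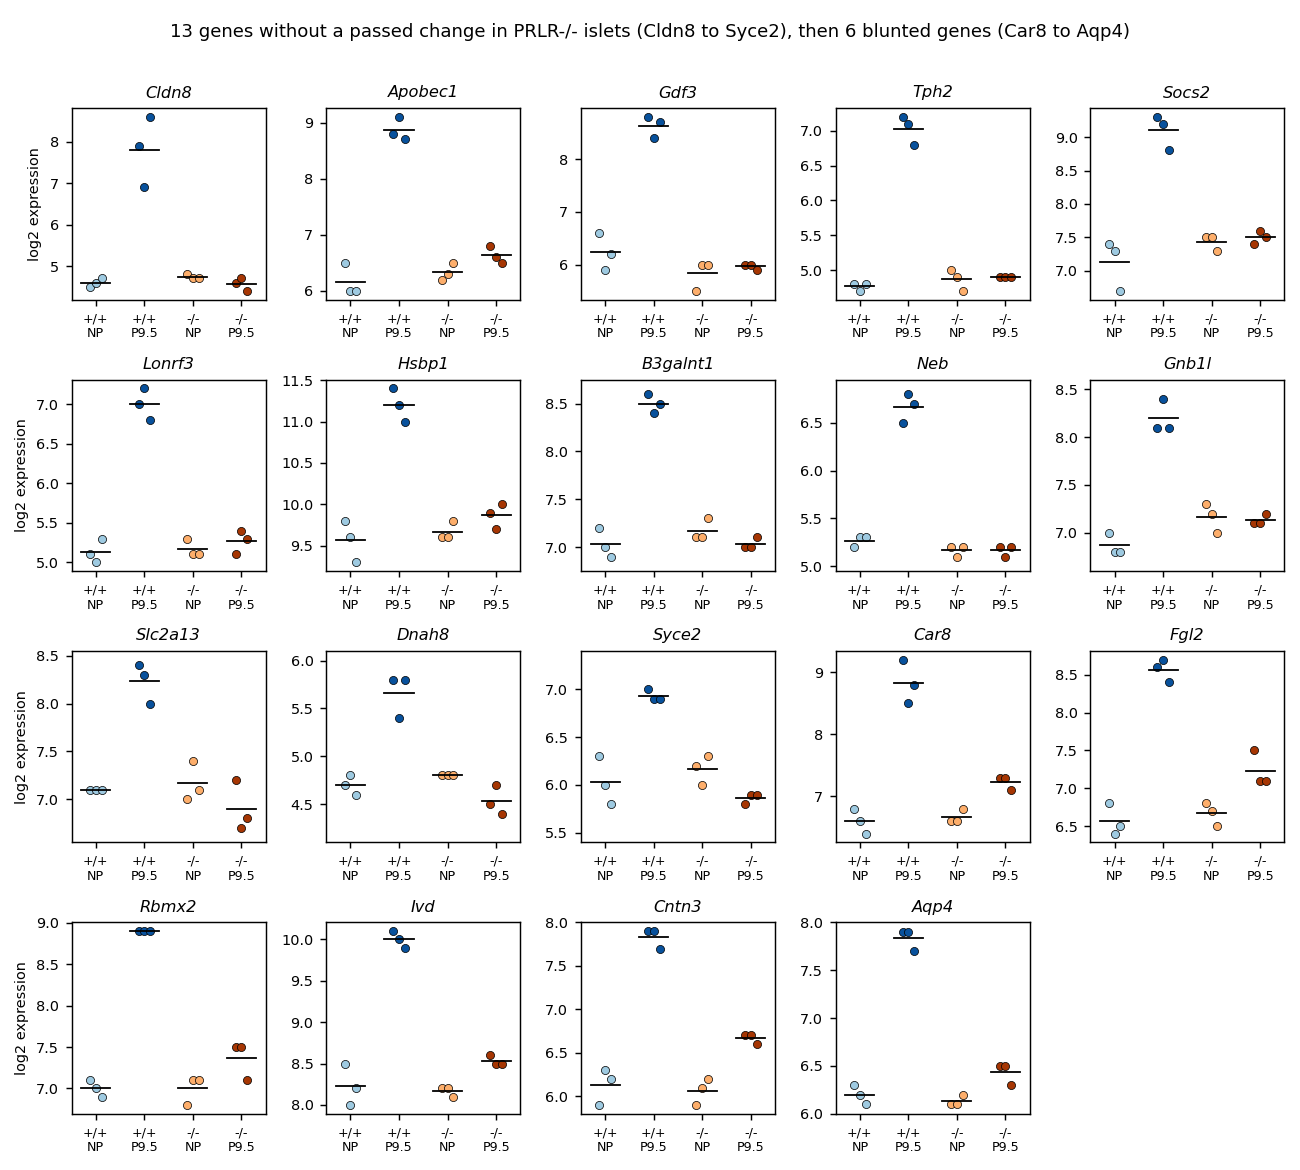
Log2 expression in PRLR+/+ and PRLR-/- islets at NP and P9.5, 1 point per array and a bar at the mean of 3 arrays, for 13 genes that rose in PRLR+/+ islets and did not pass in PRLR-/- islets (Cldn8 to Syce2) and for 6 blunted genes (Car8 to Aqp4). Each panel has its own y axis, and in all 19 the PRLR+/+ P9.5 arrays lie above every PRLR-/- P9.5 array. The genes were chosen by a called interaction on these same arrays, so this separation is a description and no added support. Its share over all genes was not counted.

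Lonrf3, a RING finger protein, was at 5.1, 5 and 5.3 in PRLR+/+ NP and 7, 7.2 and 6.8 in PRLR+/+ P9.5 islets, while the PRLR-/- arrays ranged from 5.1 to 5.4 at both stages. B3galnt1, the enzyme that makes the glycolipid globoside, was at 7.2, 7 and 6.9 and then 8.6, 8.4 and 8.5 in PRLR+/+ islets, against 7.1, 7.1 and 7.3 and then 7, 7 and 7.1 in PRLR-/- islets. In both genes the PRLR+/+ P9.5 arrays stood at least 1 log2 unit above all other arrays. Their interactions were -1.77 (adjusted p = 0.00393 in limma) and -1.60 (adjusted p = 0.00203 in limma). Neb, a giant protein of muscle thin filaments, was at 5.2, 5.3 and 5.3 and then 6.5, 6.8 and 6.7 in PRLR+/+ islets and at 5.1 or 5.2 on all 6 PRLR-/- arrays (interaction -1.40, adjusted p = 0.00215 in limma).

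Hsbp1, a protein that binds heat shock factor, was at 9.8, 9.6 and 9.3 and then 11.4, 11.2 and 11 in PRLR+/+ islets. The PRLR-/- values were 9.6, 9.6 and 9.8 and then 9.9, 9.7 and 10, where the 2 stages overlapped. Its interaction of -1.43 (adjusted p = 0.0295 in limma) lost its call when any of 10 arrays was left out and under median centring (adjusted p = 0.0835 in limma). Of 18 measured heat shock genes, which did not include Hsbp1, 0 had a called interaction (in limma, 1 higher and 0 lower before adjustment), and their median interaction was 0.15. In each genotype 3 of them rose (16.7%, against 8.04% of all genes called in PRLR+/+ and 10.9% in PRLR-/- islets).

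The other 4 genes of the group were named after their values were seen. They were Gnb1l, a WD repeat protein, Slc2a13, which carries myo-inositol into cells, Dnah8, a heavy chain of axonemal dynein, and Syce2, a protein of the synaptonemal complex. They rose by 1.33, 1.13, 0.97 and 0.90 in PRLR+/+ islets, with changes of -0.03, -0.27, -0.27 and -0.30 in PRLR-/- islets and interactions of -1.37, -1.40, -1.23 and -1.20. A second probe set of Gnb1l was dimmer and its interaction of -0.33 was not called. For 12 of the 13 genes the 95% interval of the change in PRLR-/- islets lay below a 1.5-fold rise, Apobec1 being the exception with an upper bound of 0.65. That of the blunted gene Aqp4 did so too, with an upper bound of 0.52. Apobec1 and Aqp4 had the same change of 0.30 in PRLR-/- islets, with standard errors of 0.158 and 0.099. Only the adjusted p there separates genes that lost their rise from blunted ones. Without the array of low Xist, Slc2a13, Syce2, Hsbp1 and Socs2 lost their call (adjusted p = 0.0963, 0.0775, 0.0733 and 0.0533 in limma). Median centring also ended the calls of Slc2a13 (adjusted p = 0.109 in limma) and Syce2 (0.0759), and quantile normalization that of Syce2 (0.0637).

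Blunted genes kept between 18.4% and 35.3% of their PRLR+/+ rise in PRLR-/- islets. Car8, a relative of the carbonic anhydrases that lacks their activity, went from 6.8, 6.6 and 6.4 to 9.2, 8.5 and 8.8 in PRLR+/+ islets and from 6.6, 6.6 and 6.8 to 7.3, 7.3 and 7.1 in PRLR-/- islets. The stages did not overlap in either genotype, and the PRLR-/- P9.5 arrays lay between the NP arrays and the PRLR+/+ P9.5 arrays. Its change was 2.23 in PRLR+/+ and 0.57 in PRLR-/- islets (interaction -1.67, standard error 0.232, adjusted p = 0.0241 in limma). Stages without overlap are common with 3 arrays per group. Of the 17070 genes called in neither genotype, 4620 had them in PRLR+/+ and 6220 in PRLR-/- islets.

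Ivd, the enzyme of the third step of leucine breakdown, went from 8.5, 8 and 8.2 to 10.1, 10 and 9.9 in PRLR+/+ islets and from 8.2, 8.2 and 8.1 to 8.6, 8.5 and 8.5 in PRLR-/- islets. Again the stages were separate in both genotypes (interaction -1.40, standard error 0.169, adjusted p = 0.00922 in limma). Of 22 measured genes of branched-chain amino acid breakdown, 9 rose in PRLR+/+ (40.9%, against 8.04% of all genes called) and 8 in PRLR-/- islets (36.4%, against 10.9%). The median change was 0.48 in each genotype, and Ivd alone had a called interaction (0 higher). The equal group held 6 of them, and Dld, a subunit shared by the branched-chain and other dehydrogenase complexes, rose the most of the 6, by 1.10 in PRLR+/+ and 1.07 in PRLR-/- islets. The others were Acad8, Acadsb, Bckdhb, Dbt and Pcca, with changes of 0.60 to 0.87 in both genotypes.

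Fgl2, a secreted protein related to fibrinogen, went from 6.8, 6.4 and 6.5 to 8.6, 8.7 and 8.4 in PRLR+/+ islets and from 6.8, 6.7 and 6.5 to 7.5, 7.1 and 7.1 in PRLR-/- islets. Rbmx2, an RNA-binding protein, went from 7.1, 7 and 6.9 to 8.9 on all 3 arrays, and from 6.8, 7.1 and 7.1 to 7.5, 7.5 and 7.1. Its PRLR-/- stages touched at 7.1, whereas those of Fgl2 were separate. The interactions were -1.43 (adjusted p = 0.0307 in limma) for Fgl2 and -1.53 (adjusted p = 0.00756 in limma) for Rbmx2. Fgl2 was not called without the array of low Xist (adjusted p = 0.0793 in limma) or under median centring (0.0827). Without that array the interaction of Rbmx2 was still called, but its change of 0.37 in PRLR-/- islets did not pass (adjusted p = 0.0548 in limma), so that it counted among the genes that lost their rise.

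Aqp4, a water channel, went from 6.3, 6.2 and 6.1 to 7.9, 7.9 and 7.7 in PRLR+/+ islets and from 6.1, 6.1 and 6.2 to 6.5, 6.5 and 6.3 in PRLR-/- islets (interaction -1.33, adjusted p = 0.00393 in limma). Cntn3, a cell adhesion protein of the contactin family, went from 5.9, 6.3 and 6.2 to 7.9, 7.9 and 7.7 and from 5.9, 6.1 and 6.2 to 6.7, 6.7 and 6.6. It was the blunted gene that also reached the fold minimum in PRLR-/- islets, where it rose by 0.60. At an adjusted p of 0.0499 in limma its interaction of -1.10 was the last inside the threshold, next to Slc2a13 and Prok1 at 0.0458. The nearest genes outside were Ggact and Psd4 at 0.0530 and Ogdhl and Hapln1 at 0.0531. Leaving out any array but PRLR+/+ NP replicate 2 cost Cntn3 its call, as did median centring and quantile normalization (adjusted p = 0.109 and 0.0637 in limma). Without the array of low Xist its adjusted p was 0.0963 in limma. The count of blunted genes fell from 6 to 0 when replicate 1 or 2 of either PRLR-/- group was left out. A blunted gene needs both a called interaction and a change that passes in PRLR-/- islets, and without PRLR-/- NP replicate 1 the interactions of Car8, Fgl2 and Cntn3 were themselves not called.

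**Figure D3:**
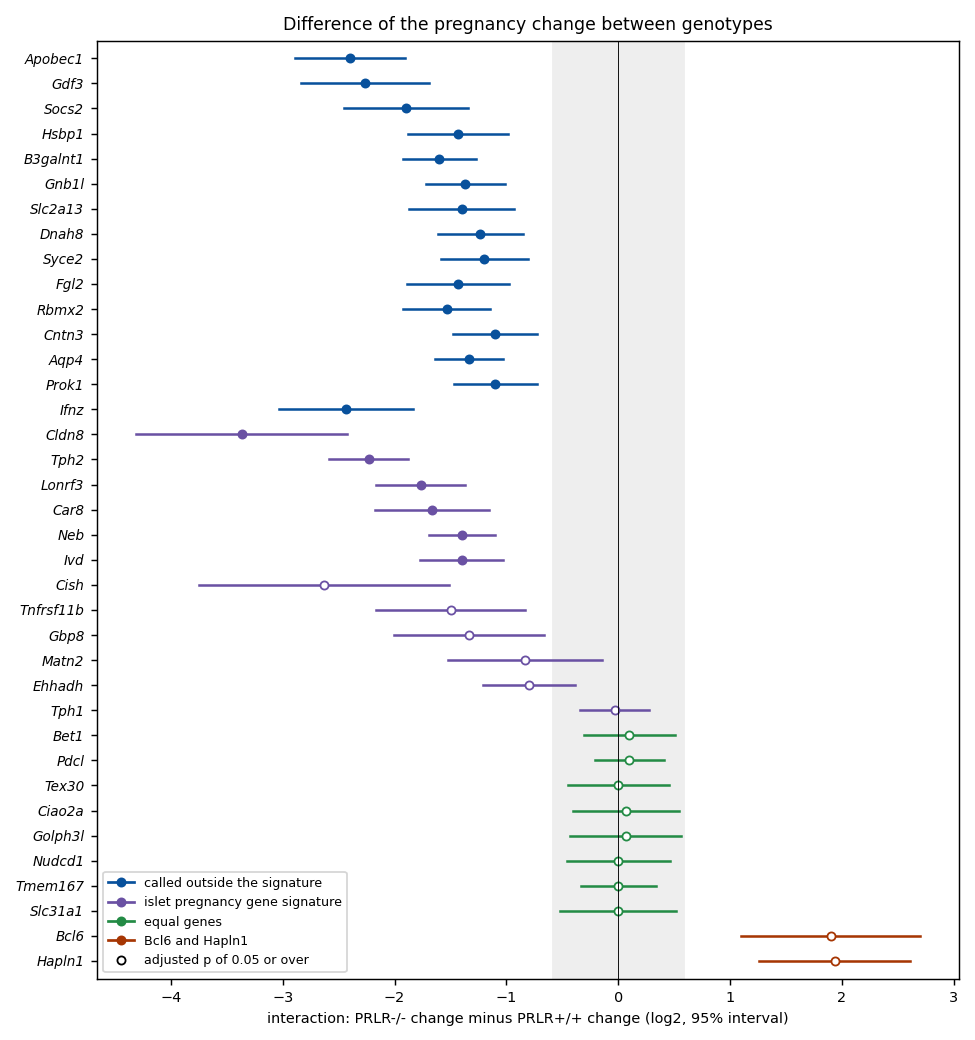
Interaction (PRLR-/- change minus PRLR+/+ change, log2) with its 95% interval for each called gene, the 12 signature genes, 8 equal genes and Bcl6 and Hapln1, with filled points at an adjusted p under 0.05 and grey shading within a 1.5-fold difference. The called genes lie to the left of the shading from -1.10 to -3.37, the equal genes lie within it, and Bcl6 (1.90) and Hapln1 (1.93) lie to the right with open points.

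The gained gene was Ifnz, an interferon, and its change was a fall. It was at 6.4, 6.9 and 6.5 in PRLR+/+ NP and at 6.1, 6.1 and 6.5 in PRLR+/+ P9.5 islets, which overlapped. It was at 8.8, 8.4 and 9.2 in PRLR-/- NP islets and at 6 on all 3 PRLR-/- P9.5 arrays, 6.96-fold lower (interaction -2.43, standard error 0.275, adjusted p = 0.00738 in limma). The PRLR-/- NP arrays stood above all others, and at P9.5 both genotypes lay between 6 and 6.5. The 3 called probe sets with several symbols also name Ifnz, so that 4 of the 28 calls concern it. Of 20 measured genes of the interferon response, 5 rose in PRLR+/+ (25%, against 8.04% of all genes called) and 4 in PRLR-/- islets (20%, against 10.9%). Among them 0 fell, and 0 had a called interaction (in limma, 2 higher and 1 lower before adjustment, at p under 0.05). Their median change was 0.35 in both genotypes.

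In the fit of all probe sets no gene gained a rise in PRLR-/- islets by these thresholds, and Hapln1 came nearest in adjusted p. Hapln1, a protein that links hyaluronan to proteoglycans in the matrix, was at 8, 7.6 and 7.7 in PRLR+/+ NP and 7.2, 8.2 and 7.7 in PRLR+/+ P9.5 islets, and at 6.9, 7.1 and 6.6 in PRLR-/- NP and 8.8, 8.6 and 8.8 in PRLR-/- P9.5 islets. It rose by 1.87 in PRLR-/- islets (adjusted p = 0.000179 in limma), from below to above both PRLR+/+ groups, which overlapped. The interaction was 1.93 (adjusted p = 0.0531 in limma), and 2.18 (adjusted p = 0.0115 in limma) without the array of low Xist, where it was called as gained. The same omission added Krtap5-1, a keratin-associated protein, whose change was -1.23 in PRLR-/- islets (interaction -1.13, adjusted p = 0.0136 in limma). Cdc14b, a phosphatase, also rose in PRLR-/- islets only, though its P9.5 arrays there overlapped the PRLR+/+ arrays. It was at 7.9, 7.8 and 8.2 and then 7.6, 7.8 and 8.4 in PRLR+/+ islets and at 7, 7.5 and 6.9 and then 8.5, 8.1 and 8.5 in PRLR-/- islets (interaction 1.27, adjusted p = 0.223 in limma). Hapln1, Krtap5-1 and Cdc14b were named after their values were seen. They were called as gained when only probe sets with 1 gene symbol were fitted (adjusted p = 0.000948, 0.00637 and 0.0430 in limma). That fit gave 18 gained genes, with rises and falls among them.

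Prok1, a secreted ligand of G protein-coupled receptors named after its values were seen, had a called interaction but, over all 12 arrays, no called change in either genotype. It was at 5.9, 5.9 and 5.7 and then 6.4, 6.2 and 6.5 in PRLR+/+ islets, and at 6.1, 6 and 6.1 and then 5.5, 5.7 and 5.3 in PRLR-/- islets. The stages were separate in both genotypes and differed in opposite directions, by 0.53 and -0.57, each just under a 1.5-fold change. Separate stages are common, and 4620 (PRLR+/+) and 6220 (PRLR-/-) of the 17070 genes called in neither genotype had them. The interaction of Prok1 was -1.10 (adjusted p = 0.0458 in limma), and it was not called under median centring (0.0504). Without the array of low Xist, Prok1 rose by 0.62 in PRLR+/+ islets (adjusted p = 0.0118 in limma) and the interaction was -1.18 (adjusted p = 0.0423 in limma).

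**Figure D4:**
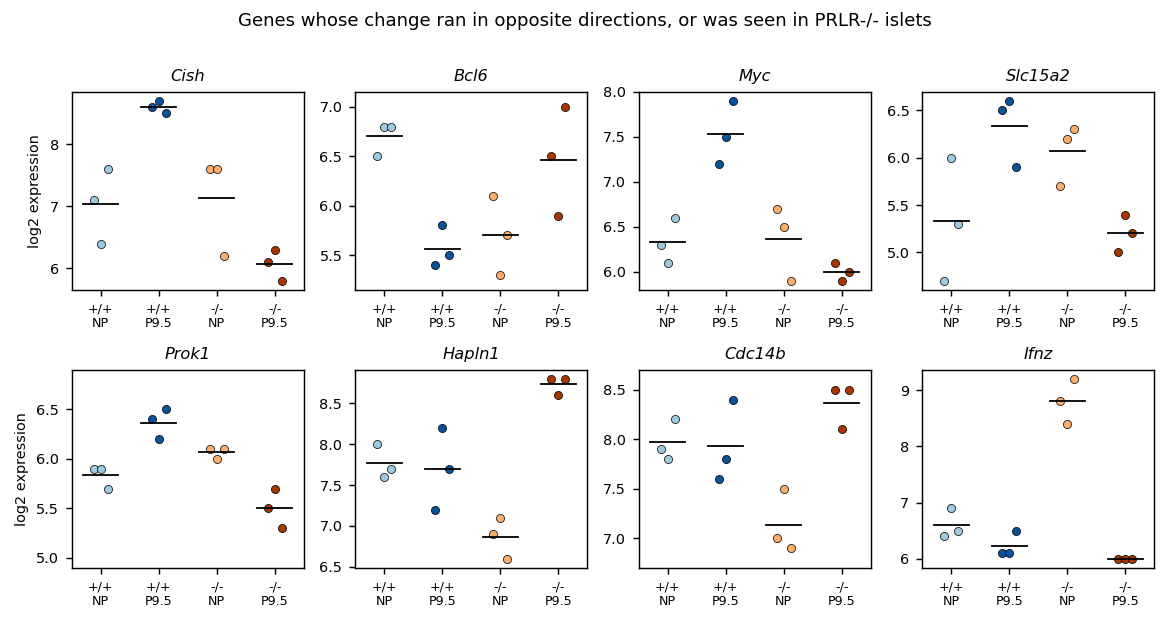
Log2 expression at NP and P9.5 in both genotypes, 1 point per array and a bar at the mean of 3 arrays, for Cish, Bcl6, Myc, Slc15a2, Prok1, Hapln1, Cdc14b and Ifnz. Cish, Slc15a2 and Prok1 move up in PRLR+/+ and down in PRLR-/- islets, Bcl6 moves the other way, and Ifnz starts at 8.4 to 9.2 in PRLR-/- NP islets.

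Called interactions were also seen in 2 probe sets without a gene name, and which genes they measure is not known from the annotation used here. One was at 5.2, 5.2 and 5.1 in PRLR+/+ NP, rose to 7.7 to 7.8 at P9.5, and lay between 5.1 and 5.5 on all PRLR-/- arrays (interaction -2.53, adjusted p = 8.27e-05 in limma). The second changed in PRLR-/- islets, from between 7.3 and 8 to between 4.5 and 5.1, with an interaction of -3.23 (adjusted p = 0.0156 in limma). Gas5, a growth arrest transcript that encodes no protein, has 4 probe sets that disagreed: the one called was at 5.1 to 5.2 and then 7.2 to 7.4 in PRLR+/+ islets and at 5.7 to 5.9 and then 7 to 7.1 in PRLR-/- islets (interaction -0.90, adjusted p = 0.0309 in limma), and the interactions of the other 3, from -0.50 to -0.23, were not called.

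The equal group was made mostly of rises, with 511 higher and 34 lower at P9.5. Of the 910 genes called in both genotypes with the same sign, 545 (59.9%) had an interaction interval within a 1.5-fold difference. The rest had a median interval half-width of 0.50 against 0.38 on the log2 scale, a difference that the rule for equal genes favours by itself. Bet1, a SNARE protein of transport from the endoplasmic reticulum to the Golgi, changed most. It was at 7.2, 7.1 and 7.1 and then 8.7, 8.5 and 8.4 in PRLR+/+ islets, and at 7.2, 7.1 and 7 and then 8.7, 8.3 and 8.8 in PRLR-/- islets. The 2 genotypes overlapped at each stage and the stages did not overlap (interaction 0.10, 95% interval -0.31 to 0.51). Pdcl, a phosducin-like folding factor of G proteins, rose by 1.23 and 1.33, Ciao2a, a factor of iron-sulphur cluster assembly, by 1.23 and 1.30, and Golph3l, a Golgi protein, by 1.2 and 1.27, in PRLR+/+ and PRLR-/- islets. Tex30 rose by 1.27 in both, Nudcd1 by 1.23, Tmem167 by 1.2 and Slc31a1, the copper importer, by 1.13.

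Falls in the equal group were smaller, and the genes given here were named after their values were seen. Mast1, a kinase bound to microtubules, fell by 0.97 in PRLR+/+ and 0.90 in PRLR-/- islets, Nynrin by 0.80 and 0.90, Prrc2b by 0.93 and 0.77, Sez6l2 by 0.93 and 0.70 and Pianp by 0.83 and 0.77. Sez6l2, a neuronal membrane protein, was at 9.8, 10.1 and 9.9 and then 9 on all 3 arrays in PRLR+/+ islets, and at 9.6, 9.7 and 9.7 and then 8.9, 9 and 9 in PRLR-/- islets. Its stages were separate in both genotypes.

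Members of growth and biosynthesis lists rose in one or both genotypes. Over all genes, 8.04% were called in PRLR+/+ and 10.9% in PRLR-/- islets, in either direction. Of 26 measured DNA replication genes, 7 rose in PRLR+/+ (26.9%) and 11 in PRLR-/- islets (42.3%). Pcna, the sliding clamp, rose by 1.03 in both genotypes and was in the equal group. Of 25 mitosis genes, 0 rose in PRLR+/+ (0%) and 8 in PRLR-/- islets (32%), while 0 had a called interaction in limma (0 lower and 1 higher before adjustment). The medians of this list were 0.27 and 0.37. Its mean level at P9.5 was 5.21, 5.30 and 5.46 on the PRLR+/+ arrays. On PRLR-/- P9.5 replicates 1, 2 and 3 it was 5.22, 5.49 and 5.95, so the 2 groups overlapped and replicate 3 stood highest. Top2a, which untangles DNA, was at 5.3, 5.5 and 5.2 and then 5.8, 5.9 and 6.2 in PRLR+/+ islets, and at 5.3, 4.8 and 5 and then 5.7, 6.4 and 7.3 in PRLR-/- islets, with the highest value on PRLR-/- P9.5 replicate 3. Its interaction of 0.80 did not pass (adjusted p = 0.579 in limma), nor did that of Nuf2, a kinetochore protein, at 0.73 (adjusted p = 0.433 in limma).

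In cholesterol and fatty acid synthesis, 7 of 24 genes rose in PRLR+/+ (29.2%, against 8.04% of all genes called) and 11 in PRLR-/- islets (45.8%, against 10.9%). The medians were 0.33 and 0.55, and the median interaction was 0.22. Before adjustment (p under 0.05), limma gave 5 higher and 0 lower interactions in this list, against 5.43% higher and 3.86% lower over all genes. Idi1, an enzyme of isoprenoid synthesis, rose by 1.03 and 1.37, and Hmgcs1, Msmo1 and Stard4 were in the equal group. Scd1, which desaturates fatty acids, had the largest interaction of the list, 0.93, and it did not pass (adjusted p = 0.271 in limma). Of 24 genes of fatty acid oxidation, 4 rose in PRLR+/+ (16.7%) and 3 in PRLR-/- islets (12.5%). Hadhb, a subunit of the mitochondrial trifunctional protein, rose by 1.03 and 0.93. Among 23 genes of folding and stress in the endoplasmic reticulum, 8 rose in PRLR+/+ (34.8%) and 11 in PRLR-/- islets (47.8%). The medians were 0.47 and 0.53, and 6 were equal, among them the chaperone Hspa5, with rises of 0.77 and 0.97. None of these 5 lists had a called interaction in either direction.

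**Figure D5:**
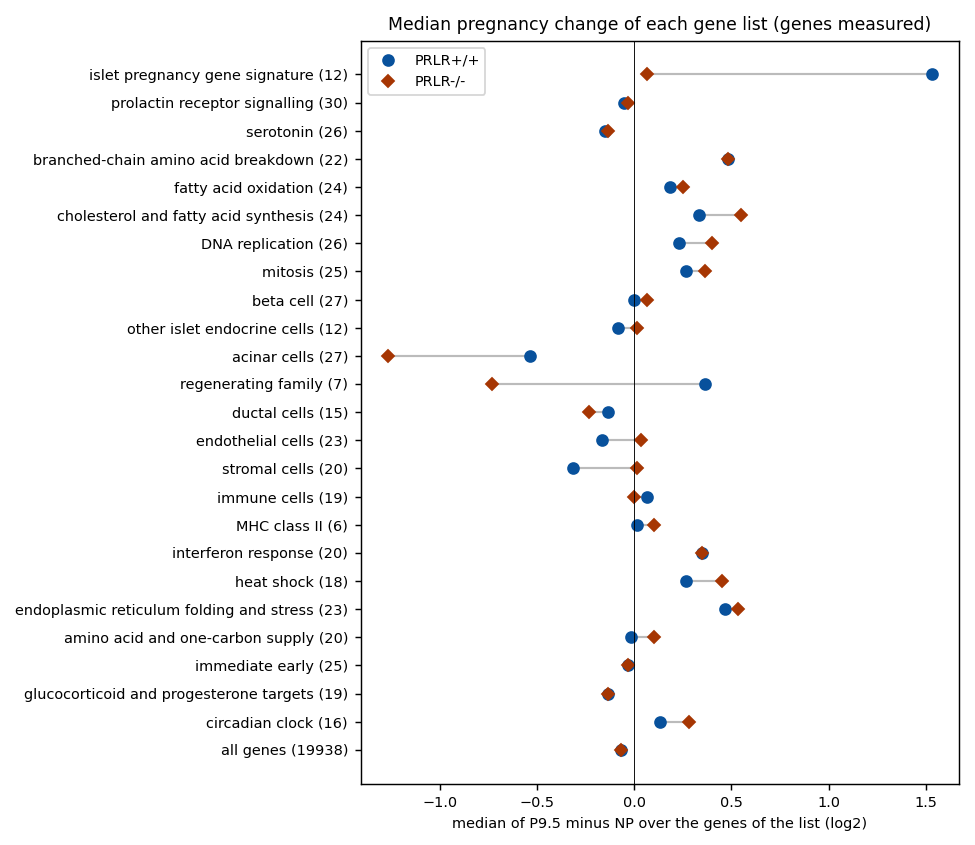
Median change from NP to P9.5 (x axis, log2) over the measured genes of 24 lists and over all genes, with circles for PRLR+/+ and diamonds for PRLR-/- islets. The signature stands apart at 1.53 and 0.07, the acinar (-0.53 and -1.27) and regenerating (0.37 and -0.73) lists also have the lower median in PRLR-/- islets, and most lists have their 2 medians close together.

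Beta cell genes moved in both directions in PRLR+/+ islets. Of 27 measured, 4 rose and 4 fell there (29.6% called, against 8.04% of all genes), and 2 rose and 0 fell in PRLR-/- islets (7.41%, against 10.9%), with medians of 0.00 and 0.07, and 0 had a called interaction (in limma, 2 higher and 2 lower before adjustment). G6pc2, the islet glucose-6-phosphatase, was at 12.2, 12.3 and 12.3 and then 12.9, 12.8 and 12.8 in PRLR+/+ islets and between 12.3 and 12.6 on all PRLR-/- arrays (interaction -0.63, adjusted p = 0.158 in limma). Chgb, a granule protein, rose by 0.60 in PRLR+/+ islets and had a change of 0.00 in PRLR-/- islets (interaction -0.60, adjusted p = 0.245 in limma). Neurod1, a transcription factor, and Ucn3, a hormone of mature beta cells, rose by 0.63 and 0.60 in both genotypes and were equal. Of the 19 genes of glucocorticoid and progesterone action, 0 rose and 4 fell in each genotype (21.1% called, against the same 8.04% and 10.9%). Among them 0 had a called interaction (in limma, 1 higher and 3 lower before adjustment). Fkbp5 fell by 0.93 in PRLR+/+ and 0.80 in PRLR-/- islets, and Zbtb16 by 1.5 and 1.4. The largest interaction of this list was that of Mt2, a metallothionein, at -1.07 (adjusted p = 0.414 in limma).

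Markers of other cells also moved with the groups. Among 27 acinar markers, 1 rose and 0 fell in PRLR+/+ islets (3.7% called, against 8.04% of all genes), while 1 rose and 15 fell in PRLR-/- islets (59.3%, against 10.9%). The medians were -0.53 and -1.27, and 0 had a called interaction (in limma, 0 before adjustment as well). The mean level of the 27 markers was 9.36 to 9.92 on PRLR+/+ NP, 8.73 to 9.81 on PRLR+/+ P9.5, 9.64 to 10.6 on PRLR-/- NP and 8.26 to 9.77 on PRLR-/- P9.5 arrays, with Cpa1 between 10.9 and 13 and Ctrb1 between 11.1 and 13.4. Pnliprp2, a pancreatic lipase, had one of the largest interactions of the list, at -1.23 (adjusted p = 0.607 in limma). The Reg genes, which injured or inflamed pancreas secretes, varied widely within groups: Reg2 was at 5.5, 7.8 and 8.1 in PRLR+/+ NP, 9.6, 7.7 and 9.5 in PRLR+/+ P9.5, 8.7, 6.7 and 8.2 in PRLR-/- NP and 9.2, 5.6 and 5.9 in PRLR-/- P9.5 islets, groups that overlapped throughout (interaction -2.77, adjusted p = 0.542 in limma). The median interaction was 0.27 over 23 endothelial and 0.28 over 20 stromal markers, with 0 called. Before adjustment (p under 0.05), limma gave 7 and 3 higher and 0 lower, against 5.43% higher and 3.86% lower over all genes. Sparc, a matrix protein, fell by 0.63 in PRLR+/+ islets with a change of 0.17 in PRLR-/- islets. The part of these cells in any gene's interaction was not tested, and fewer cells of a type cannot be told apart from less RNA per cell.

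Because 3 arrays per group limit the precision, a missed threshold is no sign that the genotypes responded alike. The interaction of 10 of the 16 genes called and named by the rule was called without any one array, and that of the other 6 was not. Cldn8 lost its call when the first PRLR-/- NP array or the third PRLR-/- P9.5 array was left out, Socs2 without any of 5 arrays, Car8 and Fgl2 each without any of 8, Hsbp1 without any of 10 and Cntn3 without any of 11.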

How the data were processed

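RNA of isolated islets was hybridised to 12 arrays, 3 in each of 4 groups, and samples were grouped by the labels' genotype and stage. The deposited log2 values were made by the authors with robust multichip analysis in aroma.affymetrix, which corrects background, normalizes quantiles and summarises the probes of each set, and are rounded to 0.1, so that small differences are coarse. Symbols came from the platform annotation, updated through Entrez: 21789 of 35511 probe sets had 1 symbol, 1621 several and 12101 none.

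Limma 3.58.1 in R 4.3.3 fitted 4 group means to all probe sets, with contrasts within each genotype and their difference. Equal required the 95% interval within 1.5-fold. By rule, text genes were the signature, the largest called changes, 8 per class and, per list, called members and those with the 2 largest interactions. Other text genes, among them Idi1, Fkbp5, Zbtb16 and the equal genes given from lists, were outside this rule. They were picked with their values known. The members and lists were chosen with earlier results of these data known. The script was tested on simulated data. Lists were described by counts and medians. The number of arrays limits the precision. Same-numbered arrays deviated together (r over 0.1) in 7 of 18 pairs and were not treated as paired. Alternatives covered scaling, filters, weights, thresholds, a replicate block and leaving out each array.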

Additional observations from a re-analysis of the deposited data

Results flagged for a closer look

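For 16 named genes the pregnancy change differed between PRLR+/+ and PRLR-/- islets by limma's test of the interaction itself. The log2 interactions were -3.37 for Cldn8, -2.43 for Ifnz, -2.40 for Apobec1, -2.27 for Gdf3, -2.23 for Tph2, -1.90 for Socs2, -1.77 for Lonrf3, -1.67 for Car8, -1.60 for B3galnt1 and -1.53 for Rbmx2. They were -1.43 for Fgl2 and Hsbp1, -1.40 for Ivd and Neb, -1.33 for Aqp4 and -1.10 for Cntn3. All 16 are negative, and for Ifnz this reflects a fall in PRLR-/- islets from a higher NP level, while the other 15 rose in PRLR+/+ islets. No cause was tested.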

How the results depend on the processing

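Probe sets with a lower interaction numbered 28, and 54 without the dimmest 40% of probe sets, 63 in a fit of probe sets with 1 gene symbol, 43 after quantile normalization and 68 with array weights. Under the same 4 settings, higher interactions went from 0 to 9, 33, 2 and 13. Genes that lost their rise in PRLR-/- islets went from 13 to 20, 38 and 22 (dim probe sets left out, 1 symbol, weights), blunted genes from 6 to 19, 3 and 12 (1 symbol, quantile, weights) and gained genes from 1 to 5, 18, 4 and 7 in the order of the first sentence, with 2 under an intensity trend and robust prior. Equal genes went from 545 to 2375 with no fold minimum, 23 at a 2-fold minimum and 871 with a 2-fold bound. In the fit of probe sets with 1 symbol, the prior degrees of freedom were 10.2 instead of 3.61, and 23 of its 63 lower probe sets were also called in the fit of all. Over 71 named genes, 1566 of 1626 alternative values kept direction and side of the threshold, 51 lost the call, 8 gained it and 1 reversed, Tff2, at 0.16 with array weights instead of -0.57. The causes were not tested.

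Leaving out each array in turn gave 16 to 37 lower and 0 to 1 higher probe sets, 4 to 6 signature calls, 8 to 14 genes that lost their rise, 0 to 6 blunted, 1 to 3 gained and 413 to 618 equal. The lowest counts of lower probe sets (16) and of lost rises (8) were both seen when PRLR-/- P9.5 replicate 3 was left out. Leaving out PRLR+/+ P9.5 replicate 2 gave 3 gained genes. The count of higher probe sets was 1 without replicate 2 of any group or PRLR+/+ NP replicate 3. Blunted genes numbered 0 without replicate 1 or 2 of either PRLR-/- group, 1 without PRLR-/- NP replicate 3 and 2 without PRLR-/- P9.5 replicate 3. Leaving out any PRLR+/+ array other than NP replicate 1 gave 3.

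With the replicate number as a block, 23 probe sets were lower and 0 higher, and 10 genes lost their rise, 4 were blunted and 526 equal. Of the 21 genes called over all arrays, Hsbp1 (adjusted p = 0.0675 in limma), Prok1 (0.103) and Cntn3, Dnah8, Slc2a13 and Syce2 (0.0863 each) lost their call under this block. Median centring moved the median interaction by 0.10, left 21 lower probe sets and ended the calls of Cntn3, Fgl2, Hsbp1, Prok1, Slc2a13 and Syce2, and quantile normalization ended those of Cntn3 and Syce2.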
